A study of Mus musculus with 7 samples.

Results

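The insulin-like growth factor (IGF) binding proteins are secreted proteins that hold IGF1 and IGF2 outside cells. The members described here are *Igfbp2*, *Igfbp3*, *Igfbp4*, *Igfbp5*, *Igfbp6* and *Igfbp7*, 6 of the 47729 genes in the count table and 6 of the 19188 genes tested. They were taken by gene symbol, and each Ensembl identifier matched 1 symbol. All 6 were well counted, with 1264 to 150308 deposited counts per library.

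The study profiled aorta by RNA-seq in 3 libraries labelled *Mmp19* knockout (KO) and 4 wild-type libraries (WT). MMP19 is a matrix metalloproteinase that cells secrete, and the series title concerns its part in thoracic aortic aneurysm and dissection. The labels give tissue and genotype only, and name no age, sex, strain, allele or treatment. The series design calls the knockout mice *Mmp19*-/-. The labels leave unsaid whether libraries are from different mice, so the p-values measure the spread between these libraries, which may be technical.

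In tissue fluid most IGF is bound to one of these proteins, which slows its clearance and keeps it from the IGF1 receptor. Proteases such as pregnancy-associated plasma protein A (*Pappa*) cut the binding proteins and release the growth factor. Several members also bind matrix or cell surfaces and act without IGF. In the vessel wall smooth muscle cells, fibroblasts and endothelial cells all make members of the family, and IGF1 is a growth and survival factor for smooth muscle.

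Deposited counts summed to 68151472 to 76926790 per library. Values below are CPM, counts scaled by TMM to a common library size, and fold changes come from edgeR's quasi-likelihood test, adjusted over all genes by Benjamini-Hochberg at a threshold of 0.05. The targeted gene was still counted, at 25.5, 11.95 and 15.9 CPM in KO-1 to KO-3 and 20.7 to 34.7 CPM in WT, with a log2 fold change of -0.56 (edgeR adjusted p = 0.368) and KO-1 inside the WT range, so *Mmp19* does not check the labels. KO-1 stood apart from the other 6 libraries, with a mean chi-square per gene of 178 to 268 against each and the lowest limma-voom weight (0.256), while KO-2 was nearer to WT-4 (24.7) than any 2 WT libraries were to each other (27.5 or more). Smooth muscle markers, 14 genes, were counted at 2081 or more in every library. They summed to 4281, 16169.8 and 8613 CPM in KO-1 to KO-3 and to 21392 to 23791 CPM in WT. In 12 of the 14 every KO library lay below every WT library, as in 8.56% of all genes. Summed macrophage markers ran from 766 to 4383 CPM in KO and from 340 to 584 CPM in WT. Of these markers 13 of 14 were higher in each KO library than in any WT library, as were 8.17% of all genes. In bulk RNA, fewer cells of a type and less RNA per cell cannot be told apart.

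The family divided by direction, with 3 members (*Igfbp2*, *Igfbp3* and *Igfbp4*) higher on average in KO and 3 (*Igfbp5*, *Igfbp6* and *Igfbp7*) lower, where 46.9% of all genes had a positive log2 fold change. No member passed edgeR's threshold, which 0.0156% of all genes did, and limma-voom also called 0 members. At an unadjusted p under 0.05 there were 3 of the 6 members, against 17.2% of all genes. Of these *Igfbp2* and *Igfbp3* were higher in KO, as were 9.92% of all genes, and *Igfbp5* was lower, as were 7.27%. DESeq2 called 2 of the 6, *Igfbp3* and *Igfbp5*, against 9.68% of the genes to which it gave an adjusted p (6.15% higher and 3.53% lower in KO). Those same 2 members were the ones whose groups did not overlap, as was the case for 16.7% of all genes (8.17% with KO above WT, 8.56% with KO below). The median log2 fold change over the 6 members was -0.04, and over all genes it was -0.03.

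**Figure D1:**
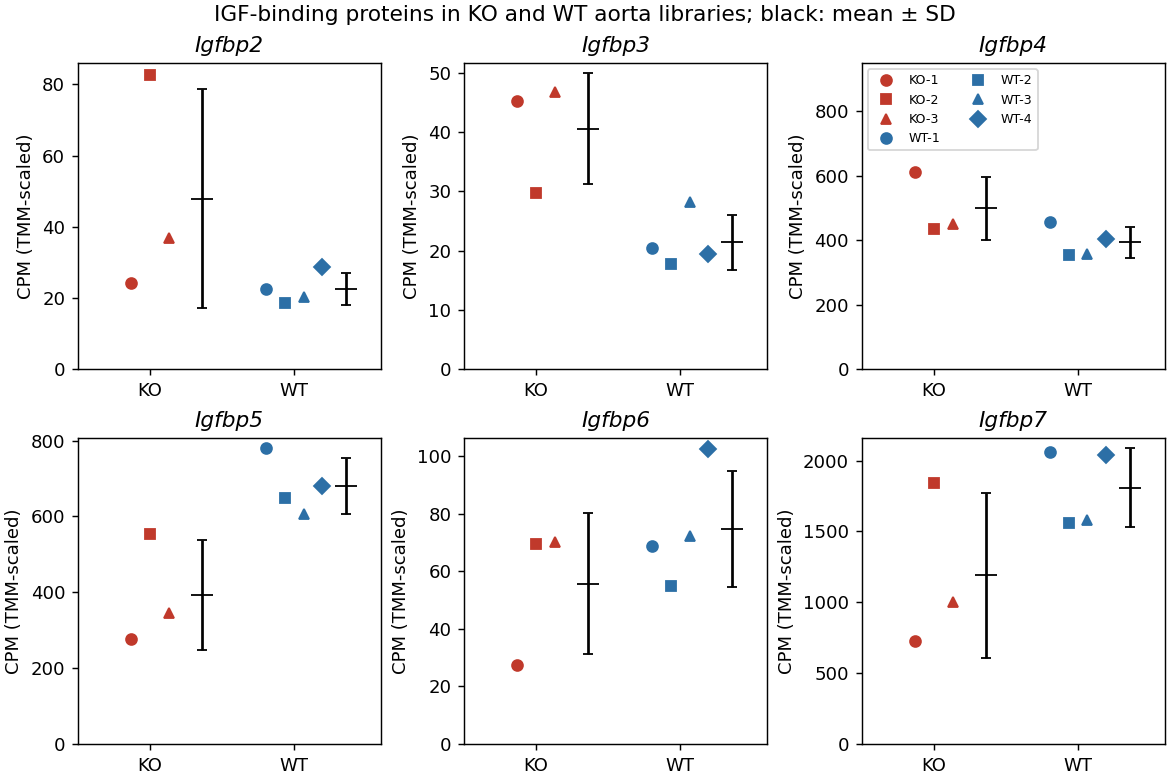
CPM of each member (vertical axes, linear from 0) in the 3 KO and 4 WT libraries, 1 point per library, with the mean and SD in black. KO points of Igfbp3 lie above all WT points and KO points of Igfbp5 below them, while the other members overlap.

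*Igfbp3* encodes the main IGF carrier of serum, which forms a large complex with IGF and the acid-labile subunit. It read 45.2, 29.8 and 46.8 CPM in KO-1, KO-2 and KO-3, against 20.4, 17.8, 28.2 and 19.4 CPM in WT-1 to WT-4. Every KO library was above every WT library, although KO-2 and WT-3 lay close together. KO averaged 40.6 ± 9.39 CPM (SD, n = 3) and WT averaged 21.4 ± 4.61 CPM (SD, n = 4). The log2 fold change was 0.92, with a standard error of 0.22 (edgeR adjusted p = 0.170, unadjusted 95% interval 0.41 to 1.43). The adjusted p was 0.00825 in DESeq2. Without KO-1 the log2 fold change was 0.83 (adjusted p = 0.337). Without KO-2, edgeR called *Igfbp3* at a log2 fold change of 1.15 (adjusted p = 0.0365). In that fit it called 1029 of 19961 genes, 667 of them higher in KO. An exact 2-sided permutation of the 7 labels gave p = 0.0571, where 0.0286 is the smallest possible.

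*Igfbp2*, which carries an integrin-binding site and binds heparin, varied most among the KO libraries. It was at 24.3, 82.7 and 36.7 CPM in KO-1, KO-2 and KO-3, against 22.7, 18.7, 20.3 and 28.7 CPM in WT-1 to WT-4. KO-2 stood far above all others, and KO-1 lay inside the WT range. KO averaged 47.9 ± 30.8 CPM (SD, n = 3) and WT averaged 22.6 ± 4.39 CPM (SD, n = 4), which gave a log2 fold change of 1.09 with a standard error of 0.39 (edgeR adjusted p = 0.230), and DESeq2's adjusted p was 0.0631. The log2 fold change was 1.40 without KO-1 and 0.48 without KO-2. Heart and skeletal muscle markers also differed between libraries. The 10 genes summed to 751, 1250.3 and 151 CPM in KO-1 to KO-3 and to 30.4 to 103 CPM in WT, and their median deviations from the WT mean were 3.56, 3.47 and -1.27 on the log2 scale in KO-1 to KO-3. The KO-3 sum came from 4 skeletal or shared genes above every WT library (*Acta1*, *Ckm*, *Myh4* and *Tnnt3*), while the 6 heart genes (*Actc1*, *Myh6*, *Myl7*, *Nppa*, *Tnni3* and *Tnnt2*) were below every WT library there. Of the 10, *Ckm* alone separated the groups. *Nppa*, an atrial hormone on that list, was at 9.81, 333 and 0 CPM in KO-1, KO-2 and KO-3 and at 0.0563 to 0.204 CPM in WT, and *Myh4*, a fast skeletal myosin, had no count in WT-2. The part of adjoining muscle in the *Igfbp2* values was not tested.

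*Igfbp4* encodes a binding protein that mainly inhibits IGF action and is the classic substrate of the *Pappa* protease. It read 612, 436 and 452 CPM in KO-1, KO-2 and KO-3, against 457, 355, 357 and 405 CPM in WT-1 to WT-4. KO-1 was the highest library, while WT-1 exceeded both other KO libraries. KO averaged 500.04 ± 97.6 CPM (SD, n = 3) and WT averaged 394 ± 48.1 CPM (SD, n = 4), which gave a log2 fold change of 0.34 with a standard error of 0.17 (edgeR adjusted p = 0.358, unadjusted 95% interval -0.06 to 0.75). It was 0.17 without KO-1.

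*Igfbp5* encodes a matrix-binding member that smooth muscle cells and fibroblasts secrete. It read 278, 555 and 346 CPM in KO-1, KO-2 and KO-3, against 781, 649, 608 and 680.3 CPM in WT-1 to WT-4. Every KO library was below every WT library, with KO-2 the nearest to WT. KO averaged 393 ± 144 CPM (SD, n = 3) and WT averaged 679 ± 74.0 CPM (SD, n = 4). The log2 fold change was -0.79, with a standard error of 0.25 (edgeR adjusted p = 0.201, unadjusted 95% interval -1.37 to -0.21). The adjusted p was 0.0270 in DESeq2. Without KO-1 the log2 fold change was -0.60 (edgeR adjusted p = 0.385), and without KO-2 edgeR called *Igfbp5* at a log2 fold change of -1.08 (adjusted p = 0.0290). The fit without KO-2 called 1029 of 19961 genes, 362 of them lower in KO. The exact permutation p of 0.0286 is the lowest that 7 libraries allow.

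*Igfbp7*, a distant member that binds IGF weakly and lies in vascular basement membranes, was the most abundant. It read 725, 1843 and 999 CPM in KO-1, KO-2 and KO-3, against 2059.6, 1559, 1578 and 2041 CPM in WT-1 to WT-4. KO-1 and KO-3 were below all WT libraries, and KO-2 lay inside the WT range. KO averaged 1189 ± 583 CPM (SD, n = 3) and WT averaged 1809.5 ± 278 CPM (SD, n = 4), which gave a log2 fold change of -0.61 with a standard error of 0.33 (edgeR adjusted p = 0.393, unadjusted 95% interval -1.38 to 0.17). It was -0.35 without KO-1 and -1.02 without KO-2 (edgeR adjusted p = 0.0555). The end of *Igfbp7* overlaps that of *Polr2b* on the other strand, only from base 77349240 to base 77349324 of chromosome 5. Without the strand setting, reads there cannot be assigned to 1 gene. *Polr2b* itself had mean levels of 66.6 CPM (KO) and 76.2 CPM (WT).

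*Igfbp6*, which prefers IGF2 to IGF1, had the largest p of the members. It read 27.4, 69.6 and 70.1 CPM in KO-1, KO-2 and KO-3, against 68.8, 55.1, 72.3 and 102.7 CPM in WT-1 to WT-4. KO-1 was low, and the other KO libraries sat among the WT ones. Its log2 fold change was -0.42 (SE 0.35, edgeR adjusted p = 0.577, unadjusted 95% interval -1.25 to 0.40), and it was -0.10 without KO-1 and -0.23 without WT-4.

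*Igfbp5* and *Igfbp7* ranked the KO libraries as the smooth muscle markers did. On the log2 scale the deviations from the WT mean were -1.28, -0.29 and -0.97 for *Igfbp5* and -1.31, 0.04 and -0.84 for *Igfbp7* in KO-1, KO-2 and KO-3. The smooth muscle markers had median deviations of -2.05, -0.45 and -1.32 in the same libraries, and -0.11 to 0.13 in WT. *Igfbp3* and *Igfbp4* deviated by 1.10, 0.50 and 1.15 and by 0.64, 0.15 and 0.21, beside macrophage marker medians of 3.37, 0.95 and 1.83. Thus KO-2 stood nearest to WT for both marker lists and for *Igfbp3*, *Igfbp4*, *Igfbp5* and *Igfbp7*, but farthest from WT for *Igfbp2*. Pericyte markers (6 genes) had medians of -0.94, -0.23 and -0.62 in KO-1 to KO-3 and -0.05 to 0.02 in WT, in the same order as the smooth muscle markers. In 4 of the 6 every KO library lay below every WT library, as in 8.56% of all genes. Fibroblast markers (12 genes, medians of -0.18 to 0.11 in KO and -0.19 to 0.17 in WT) and endothelial markers (12 genes, -0.35 to 0.08 in KO and -0.07 to 0.09 in WT) had medians closer to WT. The fibroblast genes differed in direction, with 7 of 12 having a positive log2 fold change, while 2 lay lower in every KO library and 0 higher. The part of cell composition in the members' values was not tested.

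**Figure D2:**
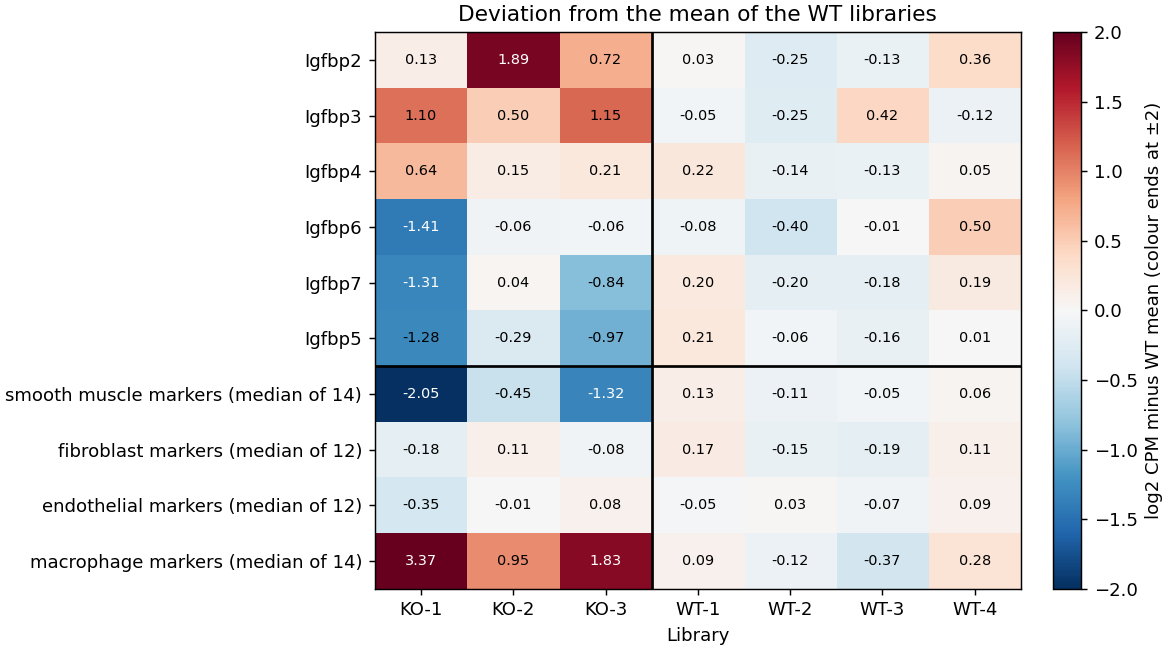
Log2 CPM minus the mean of the WT libraries for the 6 members (upper rows) and as medians over 4 marker lists (lower rows), in KO-1 to KO-3 and WT-1 to WT-4. Igfbp5, Igfbp7 and the smooth muscle markers are lowest in KO-1 and nearest to WT in KO-2, whereas Igfbp2 is highest in KO-2.

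Levels of different genes were compared per length, as CPM per kb of annotated exon. In KO the order was *Igfbp7* (984 ± 482), *Igfbp4* (113 ± 22.1), *Igfbp5* (65.4 ± 24.0), *Igfbp6* (50.1 ± 22.0), *Igfbp2* (25.9 ± 16.7) and *Igfbp3* (12.97 ± 3.00 CPM per kb, SD, n = 3). In WT it was *Igfbp7* (1497 ± 230.1), *Igfbp5* (113 ± 12.3), *Igfbp4* (89.2 ± 10.9), *Igfbp6* (67.2 ± 18.1), *Igfbp2* (12.2 ± 2.38) and *Igfbp3* (6.85 ± 1.47 CPM per kb, SD, n = 4). *Igfbp7* was far above the rest in both groups. Among KO libraries the ranges of *Igfbp5* and *Igfbp6*, of *Igfbp6* and *Igfbp2*, and of *Igfbp2* and *Igfbp3* overlapped. Among WT libraries those of *Igfbp5* and *Igfbp4* and of *Igfbp4* and *Igfbp6* overlapped, while *Igfbp2* and *Igfbp3* were apart.

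*Igfbp4* and *Igfbp5* changed places between the groups. Within each KO library *Igfbp4* was the higher, at 139, 98.7 and 102 CPM per kb in KO-1 to KO-3 where *Igfbp5* was at 46.3, 92.4 and 57.6. Within each WT library *Igfbp5* was the higher, at 130.1, 108, 101 and 113 CPM per kb in WT-1 to WT-4 where *Igfbp4* was at 103, 80.5, 80.9 and 91.8. In KO-2 the pair was nearly level. The order within a library depends on the exon lengths used, 4416 bases for *Igfbp4* and 6006 for *Igfbp5*, while the ratio between groups does not.

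As shares of the family's summed level per kb, *Igfbp7* held 71.7%, 83.2% and 76.2% in KO-1 to KO-3 and 83.0% to 84.4% in WT. *Igfbp2* held 1.57%, 2.44% and 1.84% in KO-1 to KO-3 and 0.608% to 0.774% in WT, so that on this scale all KO libraries were above all WT libraries. *Igfbp4* held 16.6%, 5.38% and 9.45% in KO-1 to KO-3 and 4.57% to 5.21% in WT, also with all KO libraries above all WT libraries. *Igfbp5* held 5.53%, 5.04% and 5.32% in KO-1 to KO-3 and 5.64% to 7.00% in WT, with all KO libraries below. Since *Igfbp7* makes up most of the sum, these shares partly repeat the ratios to *Igfbp7*. How often other genes separate on such a scale was not computed. The summed level itself was 837, 1833 and 1084 CPM per kb in KO-1 to KO-3 and 2018, 1543, 1573 and 2007 CPM per kb in WT-1 to WT-4. KO-2 was inside the WT range for the sum, yet its *Igfbp2* share was the largest of the 7 libraries. KO-1 had the lowest sum, while its *Igfbp2* level of 24.3 CPM lay inside the WT range.

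**Figure D3:**
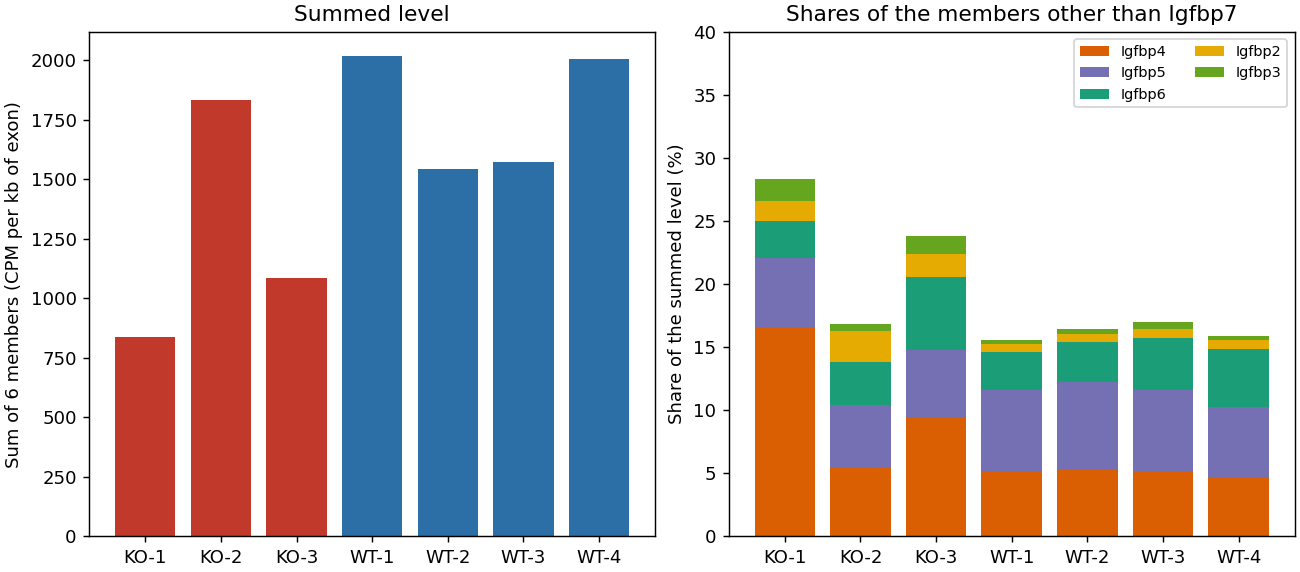
Left, summed level of the 6 members (CPM per kb of exon) in each KO and WT library; right, shares of that sum (%) held by the members other than Igfbp7. The Igfbp2 segment is 1.57% to 2.44% in KO and 0.608% to 0.774% in WT, and Igfbp4 is largest in KO-1.

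Ratios between members were taken within each library, which removes any scaling between libraries. Of the 15 pairs, 7 had groups that did not overlap (46.7%), where 20.3% of all pairs of genes with a mean of 2 CPM or more did. The 15 pairs share members and are not independent. *Igfbp2* stood to *Igfbp7* at 0.0335, 0.0449 and 0.0368 in KO-1 to KO-3 and at 0.0110, 0.0120, 0.0128 and 0.0141 in WT-1 to WT-4. The KO ratios were thus close to each other and well above WT, but from different levels. KO-1 had *Igfbp2* at 24.3 CPM, inside the WT range, and *Igfbp7* at 725 CPM, below every WT library. KO-2 had *Igfbp2* at 82.7 CPM, above every WT library, and *Igfbp7* at 1843 CPM, inside the WT range. KO-3 had *Igfbp2* at 36.7 CPM, above WT, and *Igfbp7* at 999 CPM, below WT. *Igfbp2* stood to *Igfbp5* at 0.0875, 0.149 and 0.106 in KO-1 to KO-3 and at 0.0287 to 0.0421 in WT, again without overlap. *Igfbp3* stood to *Igfbp5* at 0.163, 0.0537 and 0.135 in KO-1 to KO-3 and at 0.0261 to 0.0464 in WT. That pair, counted among the 7, had to separate, since *Igfbp3* was above WT and *Igfbp5* below WT in every KO library. The ratio of *Igfbp4* to *Igfbp7* was 0.844, 0.236 and 0.453 in KO-1 to KO-3 and 0.199 to 0.228 in WT, with KO-2 just above the highest WT library. By contrast, *Igfbp5* stood to *Igfbp7* at 0.301 to 0.383 in KO and 0.333 to 0.416 in WT, and these ranges overlapped.

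**Figure D4:**
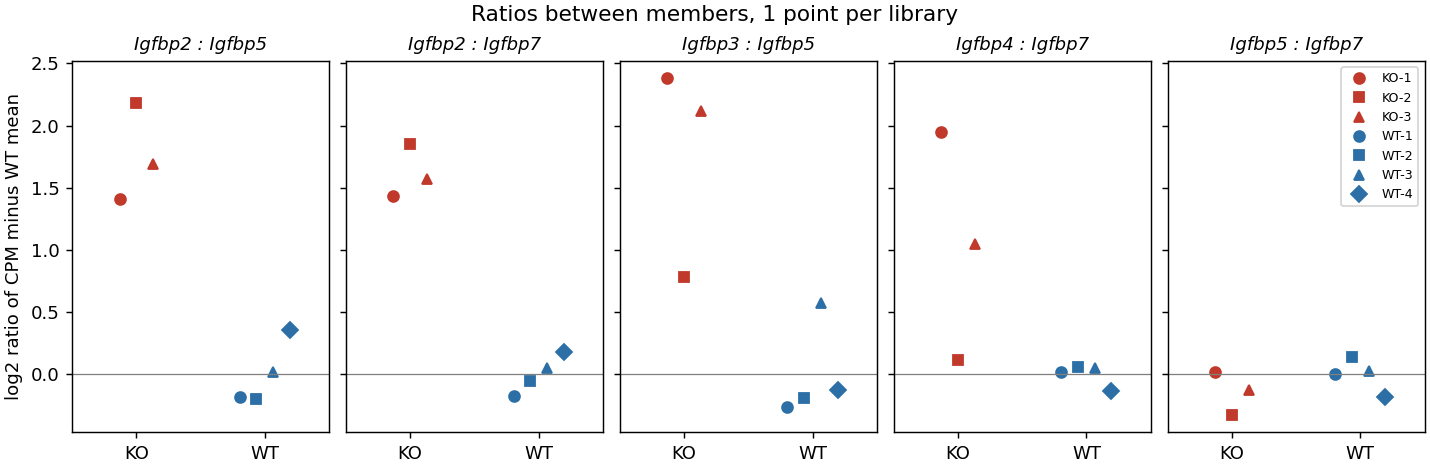
Log2 ratio of CPM between pairs of members, minus the mean of the WT libraries, 1 point per library. Igfbp2 to Igfbp5 and Igfbp2 to Igfbp7 put all KO libraries above all WT libraries, while Igfbp5 to Igfbp7 overlaps between KO and WT.

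Likeness of profile was measured as the root-mean-square difference, over the 7 libraries, of log2 CPM deviations from the WT mean. Among the 15 pairs of members *Igfbp5* and *Igfbp7* were the most alike (0.158) and *Igfbp3* and *Igfbp5* the least (1.26). Among 13543 genes, those closest to *Igfbp7* were *Hspb2* (0.0562), a small heat shock protein of muscle, and *Nexn* (0.0917), an actin-binding protein of muscle. The closest to *Igfbp5* were *Ranbp17* (0.0656) and *Cbr2* (0.0821), and to *Igfbp6* *Il17d* (0.120) and *Olfml1* (0.186). The closest to *Igfbp3* were *Slc7a2* (0.139), a transporter of cationic amino acids, and *Penk* (0.149), the enkephalin precursor. *Penk* was at 36.8, 19.4 and 30.9 CPM in KO-1 to KO-3 and 12.9 to 16.4 CPM in WT. *Igfbp4* was nearest to *Ddi2* (0.0400) and *Atad2b* (0.0409). *Igfbp2* had no close match, its nearest genes being *Fam180a* (0.247) and *Phlda1* (0.329).

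*Igfbp2* and *Igfbp5*, whose mean levels differed from WT in opposite directions, are neighbours in the genome. On GRCm38, *Igfbp2* (chr1:72824503-72852474, plus strand) and *Igfbp5* (chr1:72857932-72874884, minus strand) point at each other with 5457 bases between their ends. *Igfbp2* had a log2 fold change of 1.09 and *Igfbp5* of -0.79, and their ratio separated all KO from all WT libraries. *Igfbp3* (chr11:7206086-7213923, minus strand) ends 3539 bases from *Igfbp1*, a member known from liver. *Igfbp1* had 0 counts in all 7 libraries, which allows at most 0.0365 to 0.0470 CPM if 1 count is 1 read (3 counts, counting error only). Low counts favoured multiples of 4, and if 4 counts stand for 1 read the limit is 0.146 to 0.188 CPM. *Igfbp4* (chr11:99041244-99054392), *Igfbp6* (chr15:102144362-102149511) and *Igfbp7* (chr5:77349240-77408041) stand apart from other members.

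The 100 bases before the start site are shown for the chromosome 1 neighbours, for *Igfbp3* and *Igfbp4*, whose mean levels were higher in KO, and for *Igfbp7*, whose mean was lower. They are RefSeq sequences on GRCm38.p6, read 5′ to 3′ on the strand of the gene, and capitals mark matches on either strand to TATAAA or GGGCGG.
Igfbp2 (chr1:72824380-72824479, plus strand): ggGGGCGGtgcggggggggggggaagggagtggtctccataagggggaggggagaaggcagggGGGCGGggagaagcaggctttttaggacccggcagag
Igfbp5 (chr1:72874866-72874965, minus strand): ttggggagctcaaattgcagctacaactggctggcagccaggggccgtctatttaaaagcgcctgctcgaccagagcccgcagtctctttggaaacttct
Igfbp3 (chr11:7213924-7214023, minus strand): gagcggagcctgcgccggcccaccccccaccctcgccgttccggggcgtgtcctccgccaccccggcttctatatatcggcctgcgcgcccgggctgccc
Igfbp4 (chr11:99041144-99041243, plus strand): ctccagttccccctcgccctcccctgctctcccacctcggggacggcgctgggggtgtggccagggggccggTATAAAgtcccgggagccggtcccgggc
Igfbp7 (chr5:77408046-77408145, minus strand): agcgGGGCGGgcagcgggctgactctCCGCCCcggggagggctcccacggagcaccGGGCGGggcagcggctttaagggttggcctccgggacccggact
RefSeq sequences were found for all 6 members, and *Igfbp2* has a further start in the table. The GC-box letters GGGCGG occurred 2 times before *Igfbp2* and 3 times before *Igfbp7*, and were in 24.7% of 32851 promoter windows of this length. TATAAA occurred once, before *Igfbp4*, beginning at base -28 from the start, and was in 5.56% of windows. The CArG box is bound by serum response factor at many smooth muscle genes. It was searched on both strands as CC, 6 bases of A or T, then GG. It had no match in the 6 windows and was in 0.615% of all windows. Matches of different motifs did not overlap in these windows. Members with the GC box thus lay on both sides, *Igfbp2* being higher on average in KO and *Igfbp7* lower.

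The rest of the IGF pathway was read from 5 lists with 44 genes, of which 41 were tested. EdgeR called 0 of them, 10 had an unadjusted p under 0.05 (9 higher, 1 lower), where 17.2% of all genes did (9.92% higher, 7.27% lower), and limma-voom called 0. DESeq2 called 5, all higher in KO, where it called higher 6.15% of the genes to which it gave an adjusted p. In 4 of the 41 the KO libraries were all above the WT libraries, against 8.17% of all genes, and in 0 all below. Their median log2 fold change was -0.11, beside -0.03 for all genes.

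Among ligands, *Igf1* was the one that separated the groups, at 214, 155 and 151 CPM in KO-1 to KO-3 against 114, 74.3, 86.8 and 118 CPM in WT-1 to WT-4. Its log2 fold change was 0.82 (SE 0.21, edgeR adjusted p = 0.175), and DESeq2's adjusted p was 0.0116. *Igf2* averaged 27.2 CPM in KO against 25.02 CPM in WT (log2 fold change 0.12, edgeR adjusted p = 0.864). Of the receptors, *Igf1r*, the signalling receptor, averaged 76.1 CPM in KO against 93.9 CPM in WT (log2 fold change -0.30, edgeR adjusted p = 0.379). *Igf2r*, which clears IGF2, averaged 207 CPM in KO against 149 CPM in WT (log2 fold change 0.47, edgeR adjusted p = 0.239). *Insr*, the insulin receptor, averaged 125 CPM in KO against 132 CPM in WT.

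Proteases that cut the binding proteins differed in direction. *Pappa*, the protease of *Igfbp4*, was at 19.6, 5.21 and 7.47 CPM in KO-1 to KO-3 against 5.34, 2.35, 2.87 and 3.35 CPM in WT-1 to WT-4, where WT-1 exceeded KO-2. Its log2 fold change of 1.63 (SE 0.49) had an edgeR adjusted p of 0.194 and a DESeq2 adjusted p of 0.0214. *Adam12*, a metalloprotease reported to cut IGFBP3 and IGFBP5 in human, read 231, 60.2 and 109 CPM in KO-1 to KO-3 against 32.4, 50.6, 24.2 and 48.1 CPM in WT-1 to WT-4, without overlap. Its log2 fold change was 1.78 (SE 0.46, edgeR adjusted p = 0.175, DESeq2 adjusted p = 0.00406). *Pappa2* averaged 3.15 CPM in KO against 3.42 CPM in WT, and *Htra1*, a secreted serine protease with an IGFBP-like domain, averaged 357 CPM in KO against 500.04 CPM in WT. *Htra1* read 232, 540.3 and 300.1 CPM in KO-1 to KO-3 against 412 to 613 CPM in WT, with KO-2 again inside the WT range. The stanniocalcins, which inhibit *Pappa* proteases, averaged 6.06 CPM in KO against 4.84 CPM in WT for *Stc1*, and 7.55 CPM in KO against 13.4 CPM in WT for *Stc2*. The WT mean of *Stc2* rests on WT-1 at 30.5 CPM, and the medians were 9.15 CPM in KO and 8.48 CPM in WT.

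Of 13 adaptor and signalling genes, 2 had an unadjusted p under 0.05, where 17.2% of all genes did, and edgeR called none after adjustment. Those were *Grb10*, an adaptor that inhibits receptor signalling, at 147 CPM in KO against 93.4 CPM in WT (log2 fold change 0.66, edgeR adjusted p = 0.237), and *Ghr*, the growth hormone receptor, at 206 CPM in KO against 155 CPM in WT (log2 fold change 0.42, edgeR adjusted p = 0.215). The receptor substrate *Irs1* averaged 52.0 CPM in KO against 67.9 CPM in WT. *Irs2* averaged 54.6 CPM in KO against 58.2 CPM in WT, with medians of 50.5 CPM in KO and 47.5 CPM in WT. Of 11 tested relatives that carry an IGFBP-like domain, 2 had a positive log2 fold change, against 46.9% of all genes. The median over these relatives was -0.35. *Ccn4*, a matricellular protein and one of the few higher relatives, was at 105, 30.9 and 40.1 CPM in KO-1 to KO-3 against 8.07 to 13.1 CPM in WT (log2 fold change 2.57, SE 0.43, edgeR adjusted p = 0.165, DESeq2 adjusted p = 1.7e-06). *Igfbpl1*, *Ccn6* and *Igfbp1* were too low to be tested.

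**Figure D5:**
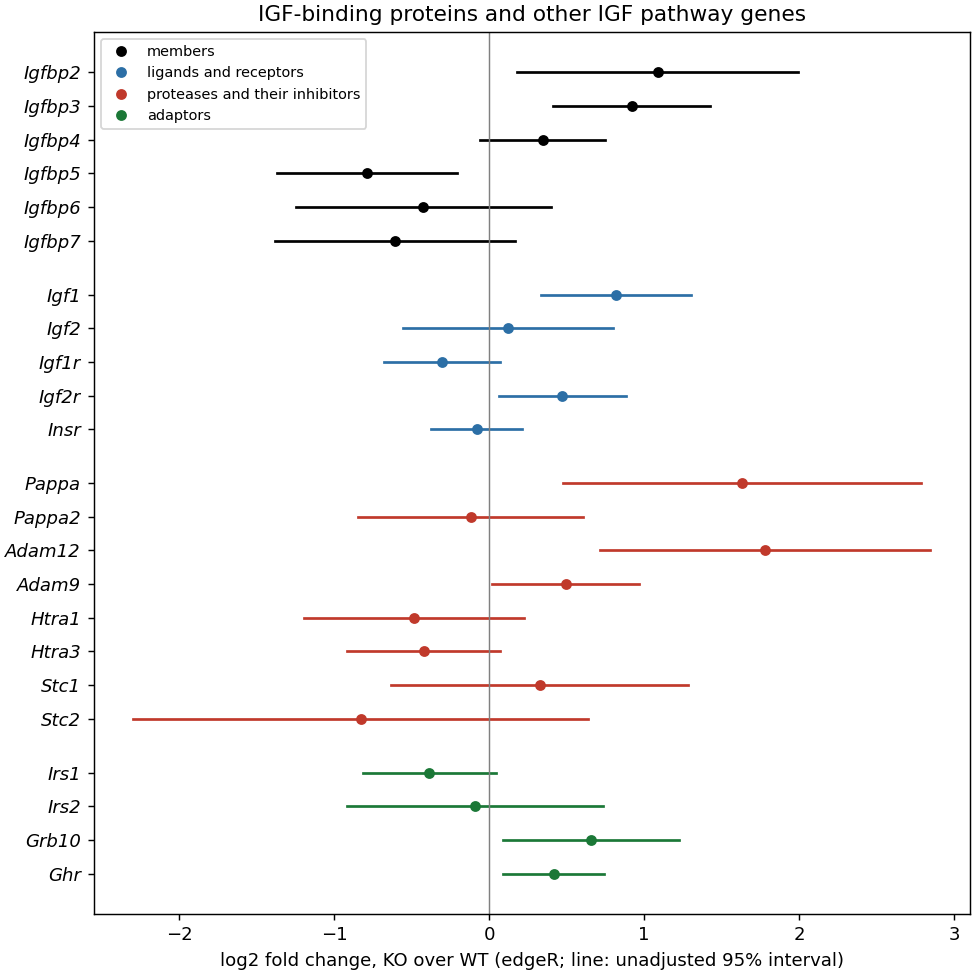
Log2 fold change (KO over WT, edgeR) of the 6 members and of selected ligands, receptors, proteases, their inhibitors and adaptors of the IGF pathway, with unadjusted 95% intervals. Of the 13 adaptor and signalling genes only Irs1, Irs2, Grb10 and Ghr are drawn, the last ones chosen after their values were seen. The 10 proteases and inhibitors and the 6 ligands and receptors are also drawn only in part. Adam9 was chosen after its value was seen. Over all 41 tested genes of the pathway lists, 16 had a positive log2 fold change and the median was -0.11. Igfbp2, Igfbp3, Igf1, Pappa and Adam12 have intervals above 0, as do Igf2r, Adam9, Grb10 and Ghr, and Igfbp5 lies below 0, but none of them passed after adjustment over all genes.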

How the data were processed

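The deposited table holds the authors' estimated counts for each gene in 7 aorta libraries, not scaled between them. Per the labels' protocols, Trizol RNA was made into libraries with the SMARTER mRNA-Seq kit. The submitters' processing notes name the builds GRCm38 and mm10. Aligner, counter, annotation and strandedness: not given in the sources used here. Counts are whole numbers, so rounding changed nothing. Between 8 and 40, multiples of 4 were more frequent than their neighbours in every library of the deposited estimated counts (1.25 to 1.38 times), so a count is not taken as a read.

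Of 47729 identifiers, 47224 matched a symbol. Positions and exon lengths come from GENCODE M21 (GRCm38, 1-based). Genes were filtered with filterByExpr (members kept regardless), scaled by TMM and tested KO against WT without covariates by glmQLFTest (R 4.3.3, edgeR 4.0.16), with Benjamini-Hochberg adjustment over 19188 genes. Standard errors match the quasi-likelihood F statistic. Log2 CPM used a prior count of 2. An exact permutation test (2-sided, 35 label assignments) was run for each member. DESeq2 1.42.0 and limma-voom 3.58.1 with sample weights were alternatives, as were other scalings, filters, counts divided by 4, a replicate block and leaving out each library.

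The members and lists were chosen with earlier results of these data known. Named genes are the members, 17 fixed pathway genes including *Mmp19*, and the 2 nearest profiles of each member. *Adam9*, *Grb10*, *Ghr*, *Polr2b*, *Ccn6*, *Insrr*, *Foxo1*, *Foxo3*, *Pik3ca* and the 10 heart and skeletal muscle markers were named after their values were seen. A test of this comparison on simulated data, with 200 of 19188 genes altered, found 18% of the 2-fold and 80% of the 4-fold changes with 8 false calls at the estimated dispersions, and 78% and 100% with 10 false calls at 0.25 times those dispersions. No 2 libraries were duplicates (mean chi-square per gene 24.7 to 268 over pairs). All columns of the table were used.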

Additional observations from a re-analysis of the deposited data

Results flagged for a closer look

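In the 4 WT libraries, the gap between the extreme library and its nearest neighbour was compared with the whole range for 48 genes, and 5 exceeded Dixon's 95% critical value for 4 samples. Chance flags about 1 in 20 groups. None of the 6 IGF-binding proteins was among them. WT-1 was the high library for 4 genes. *Foxo3*, a transcription factor held back by IGF and insulin signalling, was at 209.9 CPM in WT-1 and at 55.7 to 70.4 CPM in the other WT libraries. *Foxo1*, its relative, was at 167.7 CPM in WT-1 and at 82.8 to 87.4 CPM in the others. *Stc2* was at 30.5 CPM in WT-1 and at 6.17 to 8.97 CPM in the others, so its WT mean rests on that library. *Pik3ca* was at 107.1 CPM in WT-1 and at 95.01 to 96.8 CPM in the others. *Insrr*, the insulin receptor-related receptor, was at 8.72 CPM in WT-3 and at 0 to 0.141 CPM in the others.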

How the results depend on the processing

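Every member kept its direction under all 15 alternatives, and 86 of 90 values stayed on the same side of edgeR's threshold. Calls were gained with DESeq2 for *Igfbp3* (log2 fold change 0.93) and *Igfbp5* (-0.79), and without KO-2 for the same members. Leaving out 1 library at a time moved the log2 fold change between 0.48 and 1.40 for *Igfbp2*, 0.82 and 1.15 for *Igfbp3*, 0.17 and 0.49 for *Igfbp4*, -1.08 and -0.60 for *Igfbp5*, -0.62 and -0.10 for *Igfbp6*, and -1.02 and -0.35 for *Igfbp7*. Over all genes, 3 calls became 1606 with DESeq2, 7 with limma-voom, 7 with counts divided by 4, 7 with the stricter filter, 0 with no filter and 0 with the replicate block, and 0 to 1029 without 1 library, the highest being without KO-2. For the IGF pathway lists 0 calls became 5 with DESeq2, and 0 to 5 without 1 library. The 5 with DESeq2 were of 41 tested, all higher in KO, beside 9.68% of the genes to which it gave an adjusted p. The 5 without KO-2 were of 42 tested, 3 higher and 2 lower in KO. In that fit 1029 of 19961 genes were called, 667 higher and 362 lower. The cause of these changes in calls was not tested. Same-numbered KO and WT libraries deviated together with correlations of 0.054, 0.069 and 0.34, and differently numbered ones with -0.234 to 0.147. The highest value was that of KO-3 with WT-3. The labels name no pairing, so the main fit did not pair libraries by number. With the replicate block the log2 fold change was 1.03 for *Igfbp2* and -0.84 for *Igfbp5*, and no member was called. The members had 1264 or more counts in every library.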
